A study of Mus musculus with 17 samples.

Results

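The genes described here are those of the oligodendrocyte lineage, the cells that make myelin in the brain, read in the hippocampus of adult mice whose mothers were young, aged, or aged and treated with rapamycin. The members were a list of 33 gene names, of which 32 matched 1 of the 24491 gene symbols counted in every library. The name Sirt2x matched no symbol and has no value here. The list was divided into 10 genes of precursors and newly formed oligodendrocytes and 22 genes of myelinating oligodendrocytes. All 32 passed the filter on low counts, among 14877 genes tested. The series holds 17 RNA sequencing libraries, and the 10 made from hippocampus are used here. They came from wild-type CD1 females of the first offspring generation, aged 40 to 44 weeks, about 10 months. The groups were the offspring of young mothers (n = 4 libraries), of aged mothers (n = 3) and of aged mothers given rapamycin (n = 3), called young, aged and rapamycin offspring below. Rapamycin, an inhibitor of the mTOR kinase, was injected into the peritoneum of the mothers at 2 mg/kg for 40 weeks from week 8. The treatment label of the rapamycin libraries reads rapa, and their titles place that treatment in the mother. Whether the libraries of a group came from different animals or litters is not stated in the labels, so the p-values measure the spread between these libraries.

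Oligodendrocytes arise from precursor cells that keep dividing in the adult brain and carry the growth factor receptor PDGFRA. A precursor that commits to differentiation passes through a short stage marked by the receptor GPR17 and then turns on the genes for myelin, the stacked membrane that wraps axons and speeds conduction. In the hippocampus myelin lies mainly in the fibre tracts at its borders, the alveus and fimbria, and more thinly among the cell layers. In bulk tissue fewer cells of a type and less RNA per cell cannot be told apart.

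No member passed the edgeR quasi-likelihood test in any of the 3 comparisons at an adjusted p of 0.05. The share of all tested genes called was 0.0471% for aged against young, 0% for rapamycin against aged and 0.0538% for rapamycin against young offspring. The level of the myelinating genes differed widely from library to library inside every group. Of the precursor and early genes, Gpr17 stood apart: all 3 rapamycin libraries lay above the other 7. Among all genes tested, 2.93% lay higher without overlap against young and 5.01% against aged offspring. The share above both groups at once was not counted. These results are given gene by gene below, with levels as CPM, counts scaled to the TMM-normalised library size.

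The libraries held 16434398 to 20220617 counts in genes. The summed level of 12 excitatory neuron markers was 8484 to 11217 CPM over the libraries, with Camk2a, Slc17a7 and Nrgn the most abundant. That sum shows excitatory neurons and cannot tell hippocampus from other tissue that holds them. Ribosomal protein genes differed widely within groups, and the library aged 1 stood apart by a list of thalamus and habenula markers (1.08 log2 units above the mean of the 10 libraries, against 0.09 or less elsewhere). In that library Pou4f1, a transcription factor of the habenula, was at 9.45 CPM, against at most 0.124 CPM in the other 9. The main differences of the myelinating genes are also given without aged 1.

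Levels of different genes were compared per length. Mbp, which encodes the basic protein that holds the inner faces of myelin together, had the highest level at 476 CPM per kilobase of exon. The carbonic anhydrase gene Car2 followed at 125 CPM per kilobase, then Cnp, a phosphodiesterase of the cytoplasmic channels of myelin, at 76.7, and the lineage factor Olig1 at 69.9. At the other end stood the Wnt effector Tcf7l1 at 0.862 CPM per kilobase, the transcription factor Nkx2-2 at 0.745 and Enpp6, an early marker of differentiating cells, at 0.534. The myelinating genes together took 0.2996% to 1.0175% of all gene counts per library.

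The 4 transcription factors of the lineage did not separate the groups. Olig1 was at 129, 248, 111 and 123 CPM in young offspring, at 141, 213 and 127 CPM in aged offspring and at 85.8, 228 and 105 CPM in rapamycin offspring. In each group 1 library, replicate 2, was far above the rest, and the groups overlapped over almost their whole range. Olig2, its partner in specifying the lineage, ranged from 26.0 to 55.7 CPM and Sox10, which drives myelin genes directly, from 24.0 to 55.1 CPM, with a replicate 2 library highest in both. Nkx2-2, a factor of early differentiation, ranged from 1.39 to 4.08 CPM, and its group means were 2.63 ± 1.15 CPM in young (SD, n = 4), 1.65 ± 0.396 in aged (SD, n = 3) and 1.97 ± 0.878 in rapamycin offspring (SD, n = 3).

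Pdgfra, the receptor that keeps precursors dividing, was at 68.6, 54.5, 53.6 and 55.0 CPM in young offspring, at 44.2, 52.0 and 47.7 CPM in aged offspring and at 75.2, 52.1 and 76.4 CPM in rapamycin offspring. The 3 aged libraries all lay below the young ones, and below the rapamycin ones too, though aged 2 and rapamycin 2 almost met. The log2 difference of aged from young was -0.27 ± 0.16 and that of rapamycin from aged 0.50 ± 0.17, and neither passed edgeR (adjusted p = 0.990 and 0.796). The second was 0.33 with the exon length offset. The lowest value came from aged 1, where a list of 12 fibroblast and meningeal genes, a cell class that also expresses Pdgfra, had its highest level (0.67 log2 units above the mean). These genes summed to 89.3 to 142 CPM in young, 114 to 155 CPM in aged and 90.4 to 140 CPM in rapamycin offspring. The part of those cells in the Pdgfra counts was not tested.

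Gpr17, a receptor that is switched on as precursors commit and off again before myelin is made, was at 27.6, 23.5, 23.1 and 28.5 CPM in young offspring. In aged offspring it was at 26.5, 28.8 and 30.4 CPM, and in rapamycin offspring at 57.6, 41.9 and 41.3 CPM. Young and aged libraries overlapped, and every rapamycin library was above both. Of all genes tested, 2.93% lay higher without overlap against young and 5.01% against aged offspring. Against young offspring the difference was 0.87 ± 0.15 on the log2 scale, rank 14 of 14877 genes by p, with an edgeR adjusted p of 0.127. DESeq2 called it (0.86 ± 0.17, adjusted p = 0.000308), and edgeR did with the ribosomal protein level as a covariate (0.83 ± 0.12, adjusted p = 0.0302). Over the other alternatives the adjusted p lay above 0.05, and without 1 library at a time it was 0.1497 to 0.6157. Against aged offspring, which shared the same rapamycin libraries, the difference was 0.72 ± 0.16 (edgeR adjusted p = 0.796, DESeq2 adjusted p = 0.0736). Gpr17 lies on chromosome 18 from 31942997 to 31949636 of GRCm38 on the minus strand, and 188 of its exon bases (3.62%) are shared with Lims2 on the other strand. Lims2, at 8.80 to 19.3 CPM in young and 6.24 to 15.7 CPM in rapamycin offspring, did not share the Gpr17 pattern.

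The genes of newly formed oligodendrocytes did not move as a block. Itpr2, an intracellular calcium channel of that stage, was at 19.9, 14.7, 22.7 and 14.2 CPM in young offspring, at 15.6, 12.4 and 14.9 CPM in aged offspring and at 26.8, 21.8 and 21.4 CPM in rapamycin offspring. The rapamycin libraries were all above the aged ones (0.71 ± 0.20 on the log2 scale, edgeR adjusted p = 0.796), while young 3 lay among them. The difference from aged offspring was 0.51 with the exon length offset. Bcas1, which marks cells that are starting to myelinate, ranged from 67.9 CPM in rapamycin 1 to 355 CPM in young 2 and followed the myelinating genes described next. Enpp6 ranged from 1.12 to 5.22 CPM and Tcf7l1 from 1.96 to 4.73 CPM, with overlapping groups in both.

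**Figure D1:**
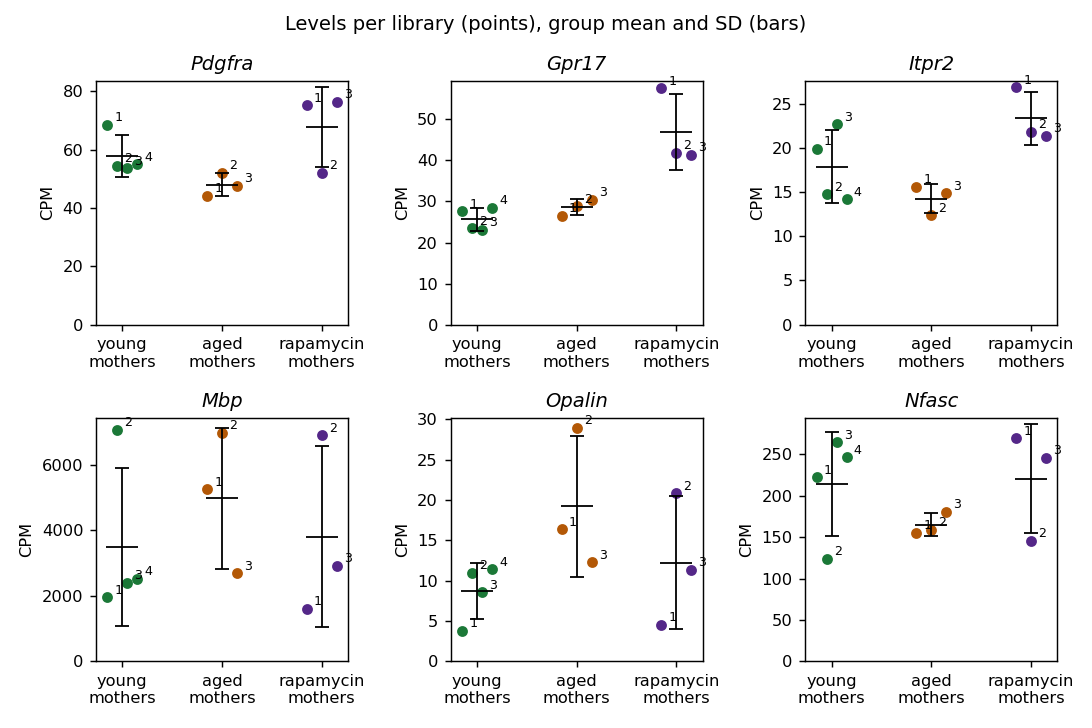
Level in CPM (y axis, from 0) of 6 genes in each library, by mother's group on the x axis. Points are libraries with their replicate number, the long bar is the group mean and the whiskers are the SD (n = 4, 3 and 3). All 3 rapamycin libraries exceed the rest for Gpr17, while Mbp spans 1605 to 6896 CPM within the rapamycin group alone.

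Mbp was at 1953, 7066, 2400 and 2522 CPM in young offspring, at 5255, 6976 and 2693 CPM in aged offspring and at 1605, 6896 and 2913 CPM in rapamycin offspring. Replicate 2 was the highest library of every group, and the range within the young and the rapamycin groups was almost that over all 10 libraries. The difference of aged from young was 0.51 ± 0.56 and that of rapamycin from aged -0.39 ± 0.60 on the log2 scale (edgeR adjusted p = 0.990 and 0.853). Single libraries moved both. The first was 0.19 without aged 2, 0.32 without young 1, 0.47 without aged 1, 0.81 without aged 3 and 1.13 without young 2. The second was -0.04 without rapamycin 1, -0.06 without aged 2, -0.25 without rapamycin 3, -0.35 without aged 1, -0.69 without aged 3 and -1.15 without rapamycin 2.

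Opalin, a membrane protein of mature oligodendrocytes, had the largest difference among the members between aged and young offspring. It was at 3.82, 11.0, 8.55 and 11.4 CPM in young offspring, at 16.3, 28.9 and 12.3 CPM in aged offspring and at 4.51, 20.8 and 11.4 CPM in rapamycin offspring. The 3 aged libraries were above the 4 young ones, with aged 3 close to young 4, and the rapamycin libraries spread over both. The log2 difference of aged from young was 1.14 ± 0.50 (edgeR adjusted p = 0.990), and it was 0.72 without aged 2, 1.24 without aged 1 and at most 1.38 when each library was left out in turn.

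The other genes of the myelin membrane showed the same libraries high and low. Mobp, a basic protein of compact myelin, ranged from 130 CPM in rapamycin 1 to 658 CPM in young 2. Cldn11, which forms the tight junctions between myelin layers, ranged from 54.7 CPM in rapamycin 1 to 193 CPM in aged 2. Mog and Mag, 2 adhesion proteins of the outer and the inner myelin surface, ranged from 18.1 to 67.9 CPM and from 68.1 to 168 CPM, both highest in rapamycin 2. The proteolipid Mal reached from 87.6 to 264 CPM, Cnp from 133 to 449 CPM and the cytoskeletal protein Ermn from 38.3 to 145 CPM. The tetraspanin Tspan2 went from 50.2 to 121 CPM, the phosphatase inhibitor Ppp1r14a from 6.39 to 37.0 CPM and the actin-severing protein Gsn from 30.3 to 62.9 CPM.

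Enzymes, transport and junction genes of mature cells behaved alike. Ugt8a and Fa2h, which make the galactolipids of myelin, ranged from 26.5 to 64.1 CPM and from 14.5 to 48.7 CPM. Aspa, which splits N-acetylaspartate, ranged from 8.57 to 24.1 CPM and Car2 from 163 to 469 CPM. The iron carrier gene Trf ranged from 97.0 to 266 CPM. Of its exon bases 63.5% are shared with the gene model Gm20425 on the same strand, which is not among the symbols counted in these libraries. The gap junction gene Gjb1 ranged from 4.77 to 22.6 CPM, and Gjc3, also a gap junction gene, only from 27.2 to 52.4 CPM. The lysophosphatidic acid receptor gene Lpar1 ranged from 16.7 to 54.3 CPM.

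Myrf and Nfasc followed the common order of the libraries least among the myelinating genes, and only Nfasc ran opposite to it. Myrf, the transcription factor that starts and keeps up myelin gene expression, ranged from 34.5 to 61.9 CPM, a ratio of 1.79, against 4.40 for Mbp and 7.59 for Opalin. The range of Gjc3 was nearly as narrow. Myrf was highest in rapamycin 3, followed by rapamycin 2 and aged 2, and lowest in aged 3. Nfasc, a cell adhesion gene with 1 form in oligodendrocytes at the paranode and another in neurons at the node, was at 223, 124, 265 and 247 CPM in young offspring, at 155, 159 and 181 CPM in aged offspring and at 270, 146 and 246 CPM in rapamycin offspring. Nfasc was lowest in young 2 and rapamycin 2, where Mbp was among the highest. Its log2 difference was -0.38 ± 0.27 for aged from young and 0.42 ± 0.28 for rapamycin from aged (edgeR adjusted p = 0.990 and 0.796). With the ribosomal protein covariate these were -0.10 and 0.01, and with the exon length offset -0.23 and 0.17. The second was 0.24 without rapamycin 1 and 0.63 without rapamycin 2.

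**Figure D2:**
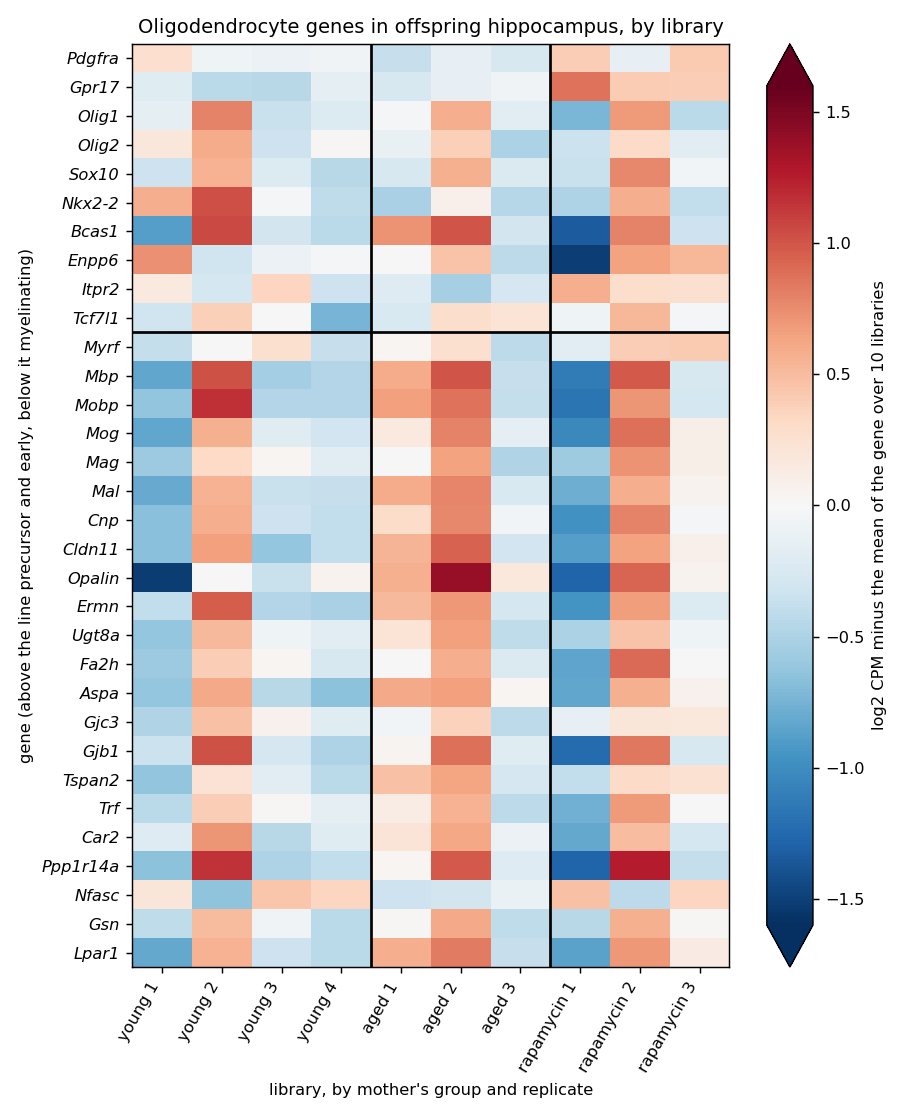
Level of the 32 members (y axis, genes by role) in the 10 libraries (x axis, by mother's group), as log2 CPM minus the gene's mean over all libraries from blue (low) to red (high), with extreme values held at the ends of the colour bar. Young 2, aged 1, aged 2 and rapamycin 2 are red for most genes below the line, rapamycin 1 and young 1 are blue, and Nfasc runs opposite.

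The order of the libraries was shared by most myelinating genes. As the mean over the 22 genes, the level was -0.58, 0.53, -0.22 and -0.31 log2 units in young offspring, 0.27, 0.69 and -0.25 in aged offspring and -0.75, 0.63 and -0.00 in rapamycin offspring, each relative to the mean of the 10 libraries. Young 2, aged 1, aged 2 and rapamycin 2 were the 4 highest. The median SD within groups was 0.59 log2 units over the myelinating genes and 0.44 over the 10 early genes, against 0.29 over all genes tested. All 22 myelinating genes and 7 of the 10 early ones were above that last value. Rapamycin 1 was the lowest library for 14 of the 22, young 2 the highest young library for 19, aged 3 the lowest aged library for 21 and rapamycin 2 the highest rapamycin library for 20. Over all genes tested, rapamycin 1 was the lowest library for 18.7% and young 2 the highest young library for 38.1%. Of those 14877 genes, 5361 had aged 3 as the lowest aged library and 6574 had rapamycin 2 as the highest rapamycin library.

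The same 4 libraries had the highest level of 72 cytosolic ribosomal protein genes, at 0.66 (young 2), 0.49 (aged 1), 0.34 (aged 2) and 0.63 (rapamycin 2) log2 units, while rapamycin 1 was lowest at -0.90. These were exactly the 4 highest libraries for 14 of 22 myelinating and 2 of 10 early genes, against 10.7% of all genes tested. At least 3 of them were among the gene's own 4 highest for 20 of 22 and 6 of 10, against 31.3% of all. The median difference of the myelinating genes with the ribosomal protein level as a covariate is given with each comparison.

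**Figure D3:**
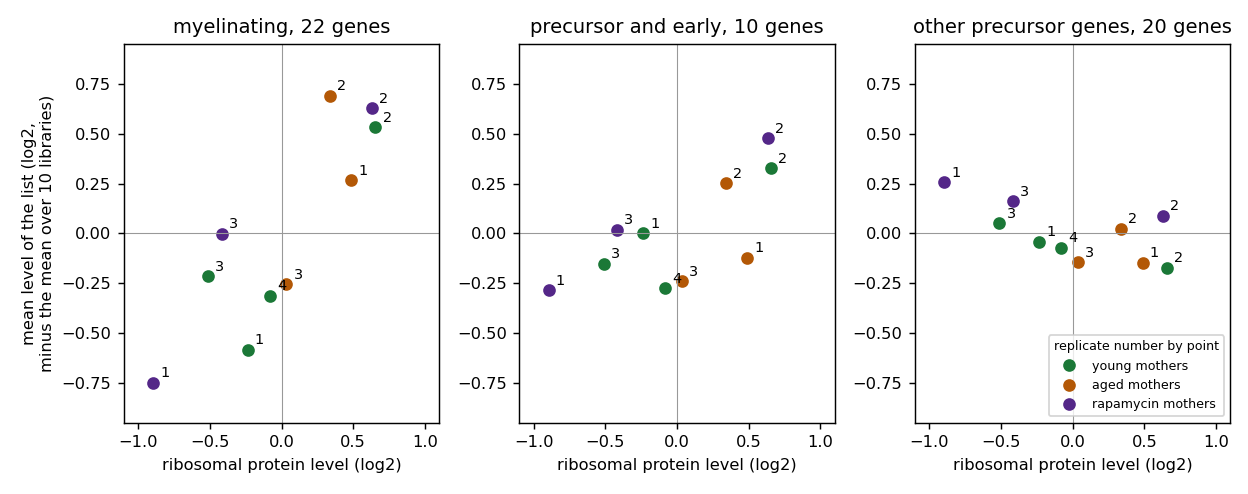
Mean level of 3 gene lists (y axis, log2 units relative to the mean of 10 libraries) against that of 72 ribosomal protein genes (x axis, same unit), 1 point per library with its replicate number, coloured by mother's group. Replicates 2 of all groups and aged 1 sit at the upper right for the myelinating list, and the 3 rapamycin points are the highest of the other precursor list.

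Gene length went with the order over all genes. At least 3 of those 4 libraries were the gene's highest for 63.4% of genes with exons under 2 kilobases in all, 37.9% from 2 to 5, 16.9% from 5 to 10 and 7.25% above 10 kilobases. Of the members, all 4 of the shortest class and all 19 of the next did so, as did 3 of the 6 in the third class and 0 of the 3 longest, Nfasc (14145 exon bases), Itpr2 (14802) and Pdgfra (10024). With an exon length trend removed from each library, the myelinating levels were still -0.57, 0.47, -0.18 and -0.30 in young, 0.25, 0.67 and -0.26 in aged and -0.68, 0.57 and 0.04 in rapamycin offspring. The ribosomal protein levels then ran from -0.57 to 0.39. The Nfasc level ran from -0.30 to 0.31 log2 units after that step. For Gpr17 the 3 rapamycin libraries remained highest, at 0.82, 0.42 and 0.34 against -0.06 or less elsewhere.

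To show what lies upstream of genes with and without this shared order, windows of 200 bases, from 250 to 51 before the annotated start, were read from RefSeq (GRCm38.p6). Mobp and Ermn, among the strongest followers, and Opalin are set beside Nfasc, which ran opposite. Capitals mark the SOX word ACAAAG on either strand (CTTTGT where it reads on the other strand), the core letters bound by SOX factors such as SOX10. The E-box CAGCTG, searched on both strands, occurs in none of these 4 windows, and the 2 words do not overlap.
Mobp, chr9:120149492-120149691, plus strand: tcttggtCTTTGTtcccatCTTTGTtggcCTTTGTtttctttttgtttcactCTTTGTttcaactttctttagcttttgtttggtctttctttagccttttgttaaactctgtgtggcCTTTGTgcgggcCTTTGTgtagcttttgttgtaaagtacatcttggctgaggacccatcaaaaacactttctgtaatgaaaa
Ermn, chr2:58052915-58053114, minus strand: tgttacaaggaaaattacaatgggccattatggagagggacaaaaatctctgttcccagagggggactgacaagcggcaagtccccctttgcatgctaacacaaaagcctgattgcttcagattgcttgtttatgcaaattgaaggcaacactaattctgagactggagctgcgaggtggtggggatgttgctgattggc
Opalin, chr19:41077164-41077363, minus strand: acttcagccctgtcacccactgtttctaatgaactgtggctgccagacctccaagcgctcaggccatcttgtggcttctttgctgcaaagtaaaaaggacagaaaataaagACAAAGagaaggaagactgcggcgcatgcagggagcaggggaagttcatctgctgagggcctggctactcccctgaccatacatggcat
Nfasc, chr1:132707377-132707576, minus strand, 1 of its 2 annotated windows: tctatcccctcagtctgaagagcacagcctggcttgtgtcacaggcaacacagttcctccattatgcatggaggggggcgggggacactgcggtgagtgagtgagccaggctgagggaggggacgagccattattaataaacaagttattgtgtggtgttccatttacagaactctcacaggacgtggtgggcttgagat
The Mobp window held the SOX word 6 times, Opalin once and the Ermn and Nfasc windows not at all. Over the 23 members with a window, the word was present for 6 of 17 myelinating genes (35.3%) and 0 of 6 early genes, against 15.4% of 27025 genes with such a window. The E-box was present for 2 of 17 (11.8%) and 0 of 6, against 11.7%. A word match describes these letters only.

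The first comparison asked whether offspring of aged mothers differ from those of young mothers. Of the 10 early genes 5 were above 0 on the log2 scale, with a median of -0.00, and of the 22 myelinating genes 20 were, with a median of 0.29 and a range from -0.38 (Nfasc) to 1.14 (Opalin). Over all genes tested 47.9% were above 0 and the median was -0.01. edgeR called none of the 32 members, and 7 of 14877 genes in all, or 0.0471%. At an unadjusted p under 0.05 stood 1 member, Opalin, against 3.51% of all genes, and DESeq2 called 0 members. In this comparison 1 member lay higher without overlap (Opalin) and 1 lower (Pdgfra), where 2.92% of all genes lay higher and 2.52% lower. The myelinating median was 0.07 without aged 2, 0.31 without aged 1 and 0.75 without young 2, and it was 0.03 with the ribosomal protein level as a covariate.

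The second comparison set rapamycin offspring against aged offspring, the 2 groups that differ by the mothers' treatment. Of the early genes 7 of 10 were above 0 (median 0.11), and of the myelinating genes 5 of 22 (median -0.26, from -0.65 for Opalin to 0.42 for Nfasc), against 52.6% and a median of 0.02 over all genes. Neither a member nor any other gene was called by edgeR (0%), and DESeq2 called 0 members. The 3 members at an unadjusted p under 0.05 were Gpr17, Itpr2 and Pdgfra, against 4.52% of all genes. They were also the 3 that lay higher without overlap, against 5.01% of all genes, and none lay lower, against 4.88%. Leaving out rapamycin 2 gave a myelinating median of -0.74, leaving out aged 2 one of 0.02, leaving out aged 1 one of -0.25, and the ribosomal protein covariate one of 0.12. The early median without rapamycin 2, without aged 2 and with the covariate was -0.21, 0.39 and 0.32.

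**Figure D4:**
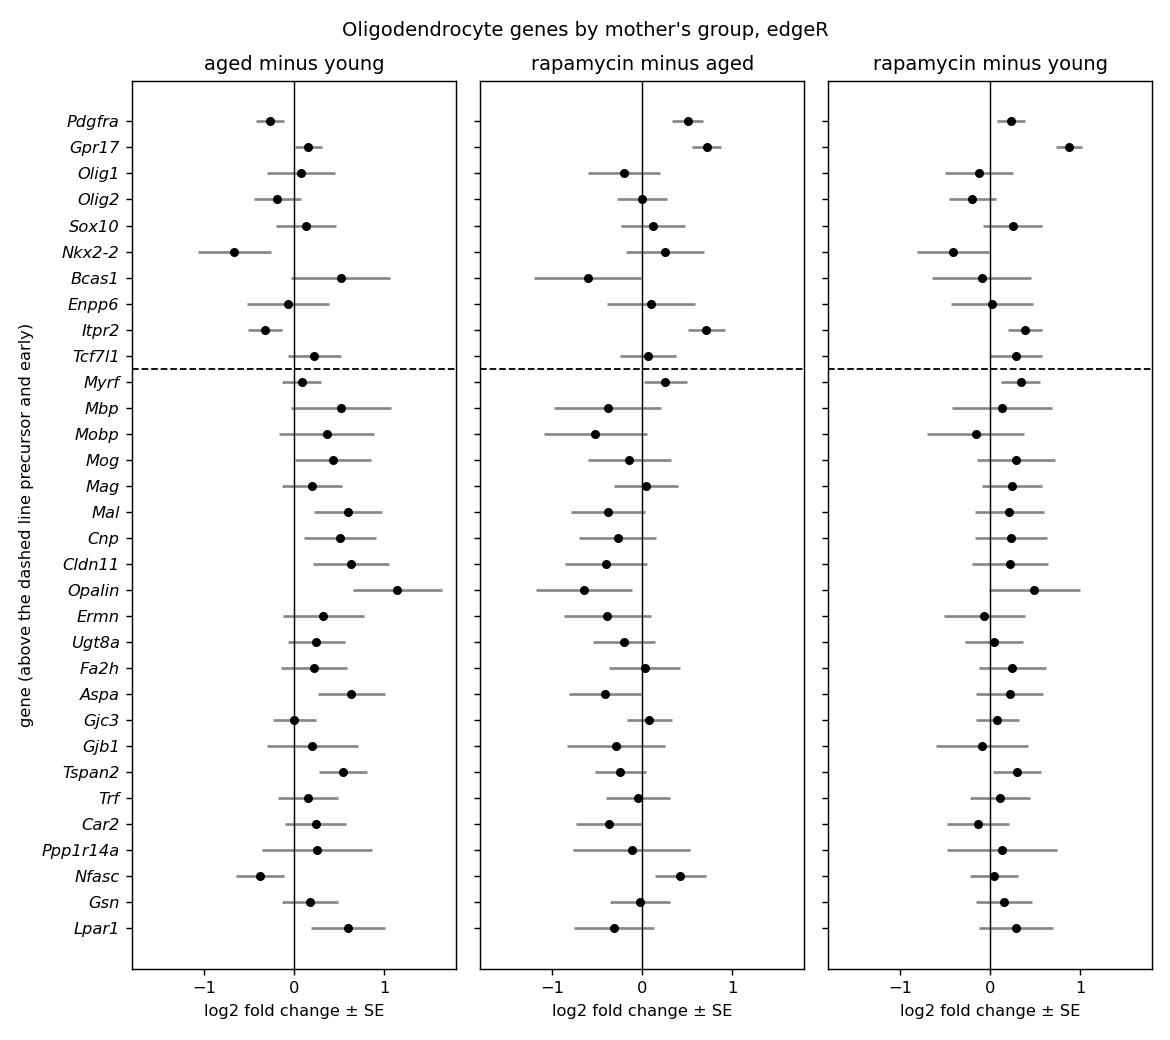
Log2 fold change with its standard error (x axis) of the 32 members (y axis) in the 3 comparisons, from the edgeR fit of all 10 libraries. Most myelinating genes lie right of 0 for aged minus young and left of it for rapamycin minus aged, and Gpr17 lies farthest right where rapamycin offspring are compared.

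The third comparison set rapamycin against young offspring and shares its libraries with the other 2. Of the early genes 6 of 10 were above 0 (median 0.13) and of the myelinating genes 18 of 22 (median 0.18), against 51.3% and a median of 0.01 over all genes. edgeR called none of the members and 8 genes in all, or 0.0538%. DESeq2 called 1 member, Gpr17. Gpr17 was also the 1 member at an unadjusted p under 0.05, against 3.63% of all genes, and the 1 that lay higher without overlap, against 2.93%, with none lower, against 2.1%. Without rapamycin 2 the myelinating median was -0.22 and the early median -0.23, both below 0, and the Mbp difference changed from 0.13 to -0.63. With the ribosomal protein covariate the myelinating median was 0.27.

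Other genes of the lineage were read from lists beyond the members, and edgeR called none of them in any comparison. Of 20 other precursor genes, 10 were above 0 for aged against young (median -0.02), 14 for rapamycin against aged (0.28) and 16 for rapamycin against young (0.13). As a mean of the list the 3 rapamycin libraries stood at 0.26, 0.09 and 0.16 log2 units and the other 7 from -0.17 to 0.05, without overlap. Summed over the list, in which the most abundant genes weigh most, the levels did overlap, at 748 to 987 CPM in rapamycin, 685 to 897 CPM in young and 732 to 765 CPM in aged offspring. Sox6, a factor that holds precursors undifferentiated, was at 26.1, 26.0 and 23.8 CPM in rapamycin offspring, 14.2 to 19.9 CPM in young and 16.7 to 25.0 CPM in aged offspring. Its difference from young was 0.53 ± 0.17 on the log2 scale (edgeR adjusted p = 0.999). Susd5 was at 7.41, 7.84 and 6.18 CPM in rapamycin offspring, above the 3.46 to 5.69 CPM of all other libraries (0.62 ± 0.23 from young, edgeR adjusted p = 0.999). Of the 20 genes, 3 lay higher without overlap in rapamycin than in aged offspring, against 5.01% of all genes. Against young offspring 2 did, against 2.93% of all genes, and 0 lay lower in either comparison. Pcdh15, a protocadherin, was at 18.3, 7.78 and 13.8 CPM in rapamycin and 5.84 to 9.09 CPM in aged offspring (0.78 ± 0.31, edgeR adjusted p = 0.796). That difference was 0.34 with the ribosomal protein covariate, 0.41 with the exon length offset and 0.47 without rapamycin 1. Ptprz1, a receptor phosphatase, was at 235 to 322 CPM in rapamycin and 190 to 257 CPM in young offspring. Rlbp1, a retinoid-binding protein also made by precursors, went the other way, with 41.3, 41.2 and 31.1 CPM in aged offspring against 21.4 to 31.4 CPM in rapamycin offspring (-0.60 ± 0.24, edgeR adjusted p = 0.796, and -0.33 with the covariate).

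Of 48 other myelin genes 36 were above 0 for aged against young (median 0.14), 14 for rapamycin against aged (-0.12) and 35 for rapamycin against young (0.07). Il33, a cytokine stored in the nuclei of oligodendrocytes and astrocytes, was at 55.1, 73.1 and 43.4 CPM in aged offspring and 28.6 to 40.0 CPM in young offspring, without overlap (0.72 ± 0.24, edgeR adjusted p = 0.990). For aged against young, 2 of the 48 lay higher without overlap, against 2.92% of all genes, and 0 lay lower, against 2.52%. Ninj2, an adhesion protein, was at 0.904 to 1.72 CPM in aged and 0.302 to 0.557 CPM in young offspring (1.51 ± 0.63, edgeR adjusted p = 0.990). These levels are low, since 3 counts came to 0.151 to 0.187 CPM.

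Of 34 genes that steer differentiation, 11, 20 and 20 were above 0 in the 3 comparisons in the same order, with medians of -0.09, 0.13 and 0.05. For rapamycin against aged, 2 of the 34 lay higher without overlap, against 5.01% of all genes, and 5 lay lower, against 4.88%. Notch1, whose signal holds precursors back, was at 42.4, 27.3 and 47.1 CPM in rapamycin and 21.7, 24.8 and 25.2 CPM in aged offspring, without overlap (0.70 ± 0.21, edgeR adjusted p = 0.796). It was 0.44 with the ribosomal protein covariate and 0.46 with the exon length offset. Its ligand gene Jag1 was at 15.9, 4.85 and 14.1 CPM in rapamycin and 5.52 to 6.87 CPM in aged offspring. The mean level of the endothelial and mural list described below was 0.67, -0.60 and 0.63 log2 units in the same rapamycin libraries. In the aged libraries it was -0.52 to -0.28. The part of vascular cells in the Notch1 and Jag1 counts was not tested. Igf1, a growth factor for the lineage, differed by -0.41 ± 0.17 between rapamycin and young offspring (edgeR adjusted p = 0.999), and by -0.25 without rapamycin 2. Tcf7l2, a Wnt effector of newly formed oligodendrocytes that thalamic neurons also express, was at 13.2, 7.87 and 5.47 CPM in aged and 3.25 to 4.92 CPM in rapamycin offspring (-1.06 ± 0.37, edgeR adjusted p = 0.796). Its highest value came from aged 1, the library with thalamic and habenular markers, and without that library the difference was -0.65. It was -0.70 with the ribosomal protein covariate. Id2 and Id4, named after their values were seen, were also lower in rapamycin than in aged offspring (-0.51 ± 0.29 and -0.63 ± 0.33, edgeR adjusted p = 0.796 for both).

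Cholesterol, a main lipid of myelin, is made in the brain itself. Of 23 genes of its synthesis 16 were above 0 for aged against young (median 0.12), 14 for rapamycin against aged (0.02) and 22 for rapamycin against young (0.15). Idi1, an isomerase early in the pathway, was at 19.0, 24.1 and 24.3 CPM in aged and 12.0 to 17.1 CPM in young offspring, without overlap (0.55 ± 0.18, edgeR adjusted p = 0.990). In that comparison 2 of the 23 lay higher without overlap, against 2.92% of all genes, and 0 lay lower, against 2.52%. Lss, which closes the sterol rings, was at 29.1 to 33.1 CPM in rapamycin and 20.9 to 29.7 CPM in young offspring (0.35 ± 0.15, edgeR adjusted p = 0.999). As a list these genes did not follow the myelin order: young 2 had the lowest level (-0.22 log2 units) and rapamycin 2 the highest (0.24).

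The axonal side of the node of Ranvier ran opposite to myelin. Of 20 listed genes 19 were tested, and 1, 16 and 12 were above 0 in the 3 comparisons in the same order, with medians of -0.20, 0.27 and 0.02. The list stood at -0.50 in young 2, -0.26 in aged 1, -0.25 in aged 2 and -0.37 log2 units in rapamycin 2, and from 0.06 to 0.39 in the other 6. Sptbn4, the spectrin of the node, was at 253, 224 and 244 CPM in rapamycin and 194, 208 and 194 CPM in aged offspring, without overlap (0.27 ± 0.14, edgeR adjusted p = 0.796), with 0.16 under the covariate and 0.13 under the exon length offset. It was the 1 of the 19 that lay higher without overlap, against 5.01% of all genes, and 0 lay lower, against 4.88%.

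Among lists of markers of other cells, the vascular, choroid plexus and astrocyte ones followed or opposed the order of the libraries. The others did so in part or not at all, and edgeR called none of the genes. The mean level of 12 endothelial and mural genes was from -0.75 to -0.28 log2 units in the 4 libraries of high myelin and in aged 3, and from 0.32 to 0.67 in the other 5. Its summed level was 153 to 387 CPM in young, 186 to 224 CPM in aged and 179 to 416 CPM in rapamycin offspring. The 12 astrocyte genes summed to 5735 to 8278, 6855 to 7589 and 6122 to 8328 CPM in the same order of groups, and the 12 microglia genes to 422 to 885, 524 to 569 and 455 to 727 CPM. The mean astrocyte level was 0.30 in young 2, 0.10 in aged 1, 0.22 in aged 2 and 0.38 in rapamycin 2, against 0.02 or less in the other 6. The mean microglia level was 0.66, 0.12, -0.04 and 0.45 in those 4 libraries, and from -0.38 to 0.11 in the other 6. Of 12 choroid plexus and ependymal genes 8 were tested, and their mean level was 1.83 in young 2, 1.23 in aged 1, 0.92 in aged 2 and 0.35 in rapamycin 2, against 0.09 or less in the other 6. The 12 excitatory neuron genes had means from -0.23 to 0.18 and the 12 interneuron genes from -0.30 to 0.28. The 8 tested genes of 12 expressed in peripheral myelinating cells had means from -0.30 to 0.22. Of 7 blood genes 4 had 0 counts in every library and 1 was tested. The thalamus and habenula list, with 10 of 11 genes tested, summed to 92.6 to 122 CPM in young, 124 to 208 CPM in aged and 95.9 to 124 CPM in rapamycin offspring. The part of these cells in the myelin differences was not tested.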

How the data were processed

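Poly-A RNA of 10 hippocampus libraries was analysed, and the 7 oocyte libraries of the series were not used here. The deposited files hold raw counts of reads per gene symbol, with STAR, HTSeq and mm10 named per the submitters' processing notes. Annotation, versions and strand setting were not given in the sources, and reads of overlapping genes could therefore not be separated. Gene counts were 16434398 to 20220617 per library, and 3 counts came to 0.151 to 0.187 CPM. Summary lines that name no gene, among them reads outside genes (11.6% to 16.0% of all reads in a file), stayed out of library sizes and tests.

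All genes were fitted in 1 model of the 3 groups with edgeR 4.0.16 (R 4.3.3, TMM scaling, filterByExpr, quasi-likelihood F-test, Benjamini-Hochberg over 14877 genes, threshold 0.05). Standard errors are printed beside log2 fold changes. List levels are means of log2 CPM (prior count 2) after subtracting each gene's mean. DESeq2 1.42.0 was an alternative. Other alternatives were RLE scaling, no filter, a mean of at least 1 CPM, a replicate block, robust dispersions, a fit of 2 groups alone, a ribosomal protein covariate and leaving out each library. An exon length offset was added after seeing the data. Exon lengths and positions came from GENCODE M21 on GRCm38, the assembly of mm10, for 96.3% of symbols. The code was tested on simulated data. Every matched member is named, with up to 4 genes of smallest unadjusted p from each other list of the pathway. Some genes that this rule takes are left out. The members and all lists were chosen with earlier results of these data known. No 2 libraries of a group agreed within sampling noise (chi-square per degree of freedom at least 12.3).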

Additional observations from a re-analysis of the deposited data

Results flagged for a closer look

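In the group of 4 young offspring 11 of 32 members had 1 library far from the other 3, by Dixon's test at the 95% level, which chance gives in about 1 of 20 groups. In 10 of the 11 that library was young 2, and the genes share that library, so they are not independent. Young 2 was high for the lineage factors Olig1 (247.8 CPM) and Sox10 (47.9 CPM). It was high for the myelin proteins Mbp (7066 CPM), Mobp (658 CPM), Cldn11 (159 CPM), Ermn (145 CPM) and Ppp1r14a (34.6 CPM). It was also high for the enzymes Aspa (23.3 CPM) and Car2 (469 CPM) and the gap junction gene Gjb1 (22.6 CPM). Young 1 was high for the precursor receptor Pdgfra (68.6 CPM). The groups of 3 were not tested in this way.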

How the results depend on the processing

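No member was called under any alternative except Gpr17 in rapamycin against young offspring, which the ribosomal protein covariate and DESeq2 each called (1 member). Genes called in all came to 2, 2 and 5 with only the groups compared (aged against young, rapamycin against aged, rapamycin against young), to 50, 11 and 31 with DESeq2, to 11 and 16 with the covariate for aged and for rapamycin against young, and to 11 with the exon length offset for aged against young. Leaving out 1 library gave 0 to 15, 0 to 1 and 2 to 10. The cause was not tested. With the replicate block, 9, 0 and 4 genes were called and 0 members. The labels do not say what a number shares. Deviations of same-numbered libraries correlated at -0.18 to 0.64, over 0.1 in 6 of 9 pairs, among them all pairs of replicates 2. Some differently numbered pairs passed 0.1 too, up to 0.52 for young 3 with rapamycin 1. Since not every same-numbered pair passed that value, the numbers were not used as a pairing.

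Without 1 library at a time the early median was -0.22 to 0.11, -0.21 to 0.39 and -0.23 to 0.26 in the same order, and the myelinating median 0.07 to 0.75, -0.74 to 0.02 and -0.22 to 0.48. The Mbp difference of rapamycin from aged became 0.16 with the covariate. That of rapamycin from young ranged from -0.63 to 0.72 without 1 library, being -0.07 without young 1, -0.04 without young 3, -0.00 without young 4 and -0.63 without rapamycin 2. Opalin in that comparison ranged from -0.14 (without rapamycin 2) to 0.87. Of 608 member values over 19 alternatives in each comparison, 34, 54 and 58 changed sign. Counted by gene, 13, 23 and 24 members changed sign in at least 1 alternative, and 19, 9 and 8 never did.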
